A study of Homo sapiens with 38 samples.

Results

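The genes described here are 5 histone acetyltransferase genes, EP300, CREBBP, KAT2A, KAT2B and KAT5, and 2 genes of the bromodomain and extraterminal (BET) family, BRD2 and BRD3. They were taken by symbol from a table of 25594 entries, and each symbol occurred once. They are 7 of the 25504 genes whose name occurred once in the table. Of these genes, 10865 had a mean level of at least 1 FPKM (fragments relative to exon length and to mapped reads) over the 8 RNA-seq libraries, and only these were tested. KAT2B, with a mean of 0.978 FPKM, was the member that did not pass, so 6 of 7 members were tested.

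RKO, a human colorectal cancer cell line, was kept in DMSO or exposed to NCD38 or either of its conjugates NCD38-β2P4 and NCD38-β2PIPP. RNA-seq covered day 30 and day 4 of each of these 4 treatments, so that 8 libraries stand for 8 conditions. All cells received 0.1% DMSO, and the compounds were given at 2 μM according to the sample labels. The medium was renewed every 5 days, an interval that the day-4 cells did not reach. For day 4 the methods of the study state the dose in mM. NCD38 inhibits LSD1, an enzyme that removes methyl groups from H3K4. The conjugates join NCD38 to a polyamide that binds the minor groove of DNA, through a linker of β-alanine units. The polyamide of NCD38-β2P4 consists of pyrrole rings and was designed for a run of 6 A or T bases, whereas NCD38-β2PIPP carries an imidazole in place of 1 pyrrole and was designed for CG with 2 A or T bases on each side. The labels do not say whether the day-4 and day-30 cells came from the same culture, and each condition is 1 culture of 1 line.

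Lysine acetylation of histone tails opens chromatin and marks active promoters and enhancers. EP300 and CREBBP encode the paralogous coactivators p300 and CBP, the main writers of H3K27ac. KAT2A and KAT2B encode GCN5 and PCAF, which take the same catalytic place in the SAGA and ATAC coactivator complexes and acetylate H3K9. KAT5 encodes TIP60, the catalytic subunit of the NuA4 complex, which acetylates H4 and H2A and takes part in the response to DNA breaks. BET proteins read these marks. Each carries a pair of bromodomains that bind acetylated H4.

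On GRCh37, in GENCODE release 44, EP300 spans chr22:41488596-41576081 on the plus strand with 31 exons, and CREBBP spans chr16:3775055-3930714 on the minus strand with 31 exons. KAT2A lies at chr17:40265129-40273385 on the minus strand and KAT2B at chr3:20081938-20195896 on the plus strand, with 18 exons each. KAT5 lies at chr11:65479723-65487075 on the plus strand with 13 exons. BRD2 lies at chr6:32936371-32949278 on the plus strand with 13 exons, within the major histocompatibility region, for which hg19 also holds alternative haplotypes. Whether the alignment included those is not given in the sources used here. BRD3 lies at chr9:136895427-136933148 on the minus strand with 12 exons. The spliced transcripts ranged from 2080 nt for KAT5 to 8779 nt for EP300 and 10790 nt for CREBBP, beside a median of 2998 nt for the expressed genes. Their GC content ranged from 41.2% for KAT2B to 57.8% for KAT5 and 59.9% for KAT2A, beside a median of 49.6%.

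Promoter sequence is shown for the genes on which the comparison of the days turns, KAT2A and KAT5, and for CREBBP, the member with the longest A/T runs at its start. The letters are the 250 bases before the transcription start in RefSeq on GRCh38.p14, at chr17:42121368-42121617 (minus strand), chr11:65712002-65712251 (plus strand) and chr16:3880714-3880963 (minus strand). Capitals mark runs of 6 or more A or T bases, the kind of site for which NCD38-β2P4 was designed.
KAT2A: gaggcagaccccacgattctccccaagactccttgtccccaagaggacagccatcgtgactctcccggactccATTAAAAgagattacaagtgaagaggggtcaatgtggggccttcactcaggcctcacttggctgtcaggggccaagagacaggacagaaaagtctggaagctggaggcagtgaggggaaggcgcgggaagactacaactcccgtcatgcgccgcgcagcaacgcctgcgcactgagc
KAT5: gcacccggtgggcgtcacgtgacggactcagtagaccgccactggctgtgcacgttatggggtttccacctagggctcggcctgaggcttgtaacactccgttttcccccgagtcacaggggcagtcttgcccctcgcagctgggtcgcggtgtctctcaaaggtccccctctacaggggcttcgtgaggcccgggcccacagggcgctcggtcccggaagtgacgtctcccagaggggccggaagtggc
CREBBP: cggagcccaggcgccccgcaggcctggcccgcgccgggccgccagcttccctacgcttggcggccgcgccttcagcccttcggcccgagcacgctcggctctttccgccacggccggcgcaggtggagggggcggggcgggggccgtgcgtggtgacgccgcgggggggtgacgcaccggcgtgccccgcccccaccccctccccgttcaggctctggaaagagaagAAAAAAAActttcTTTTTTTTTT
The KAT2A stretch holds 2 overlapping matches, the KAT5 stretch 0 and the CREBBP stretch 8. RefSeq lists 11 start windows of 300 bases for the 7 genes, and 5 of the 11 windows, from 4 of the 7 genes, hold such a run. Of all 35116 RefSeq windows 61.2% hold one, and of the 10618 windows of tested genes 46.7%.

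CG with 2 A or T bases on each side, the kind of site for which NCD38-β2PIPP was designed, occurs in 2 of the 11 windows, both of BRD2, and in 15.9% of all windows. Both kinds of site read the same on either strand. The 3 matches lie within the third BRD2 start window and the next one, on the plus strand of GRCh38.p14, and are shown in capitals with their flanks as the only matches among the members.
BRD2, chr6:32971412-32971441: gctcgtctttccATCGTTtggcttgaggga
BRD2, chr6:32971485-32971514: gtggggcatgggAACGTTagatcccctcat
BRD2, chr6:32972917-32972946: ccccacaataagTACGTTtccgcgagccgc
They start 171, 98 and 155 bases before the start of their window's transcript. A match describes the letters and was not measured as a binding site.

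Depth is known only by an estimate from the smallest FPKM values, which gave 13500000 to 24800000 fragments per library. Of 12 markers of colon epithelium, 4 (EPCAM, KRT8, KRT18 and CDX2) had a mean of at least 1 FPKM, 8 stayed below 0.5 FPKM in all libraries, and KRT20, CDX1, VIL1 and GPA33 were listed at 0 throughout. The summed level of these markers was 119 to 151 FPKM on day 30 and 98.1 to 149 FPKM on day 4. Of the 4 tested, only EPCAM, an adhesion molecule of epithelial cells, was called, beside 30.2% of all genes called higher. EPCAM was at 5.45 ± 1.20 FPKM on day 30 and 0.513 ± 0.386 on day 4 (SD, n = 4 libraries a day, limma difference 2.11, adjusted P = 0.000546). KRT8 (0.07), KRT18 (0.26) and CDX2 (-0.36, limma adjusted P = 0.0647) were not called. With the trend on transcript GC content subtracted from each library, all 4 were called higher, beside 28.1% of all genes. The 5 mesenchymal markers summed to 20.3 to 25.9 FPKM on day 30 and 3.02 to 11.2 FPKM on day 4. Of these, ZEB1 was at 19.2 FPKM on day 30 and 2.38 on day 4 (limma adjusted P = 0.00182). VIM was at 4.31 and 4.24 FPKM and was not called (limma adjusted P = 0.786), and the other 3 stayed below 0.5 FPKM in all libraries. With the GC trend subtracted, ZEB1 and VIM were both called higher on day 30. The 5 lymphocyte and endothelial markers were listed at 0. The part of such differences in the results below was not tested. In bulk RNA, fewer cells of a kind and less RNA per cell cannot be told apart.

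BRD2 and KAT2A had the highest levels of the 7 genes, at 46.8 ± 12.9 and 46.4 ± 22.1 FPKM (SD, n = 8 libraries of 8 different conditions). KAT5 followed at 18.9 ± 11.7 FPKM, BRD3 at 9.56 ± 3.45, CREBBP at 3.52 ± 1.83, EP300 at 1.67 ± 0.815 and KAT2B at 0.978 ± 0.583. The median of the expressed genes was 9.21 FPKM, so the writers of H3K27ac and PCAF lay below it, and BRD2, KAT2A, KAT5 and, narrowly, BRD3 above it. KAT2A exceeded KAT5, BRD3 exceeded CREBBP, and CREBBP exceeded EP300 in 8 of 8 libraries. KAT5 exceeded BRD3 in 7 of 8 libraries and EP300 exceeded KAT2B in 7 of 8. BRD2 exceeded KAT2A in 6 of 8 with means that differed by far less than the SD of either gene. Across libraries, the coefficient of variation was lowest for BRD2, at 27.6%, and highest for KAT5, at 61.6%, beside a median of 41.7% for expressed genes.

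Within each pair of paralogs 1 gene was the higher in every library. The EP300 level was 0.53 to 0.70 of the CREBBP level on day 30 and 0.26 to 0.46 of it on day 4. KAT2A was 14.6 to 30.1 times the level of KAT2B on day 30 and 37.6 to 548 times on day 4, where the highest ratio rests on an estimated 9.09 KAT2B fragments. BRD2 was 4.65 to 6.47 times the level of BRD3 on day 30 and 4.55 to 5.75 times on day 4. The ratio of BRD2 to BRD3 thus stayed in a narrower range than that of KAT2A to KAT2B. The transcripts of KAT2A and KAT2B also lie further apart in GC content (59.9% and 41.2%) than those of BRD2 and BRD3 (55.1% and 52.3%). The part of GC content in these ratios was not tested.

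EP300 measured 1.55 FPKM under DMSO, 1.91 under NCD38, 1.31 under NCD38-β2P4 and 1.23 under NCD38-β2PIPP on day 30. On day 4 it measured 1.42 FPKM under DMSO, 0.514 under NCD38, 2.15 under NCD38-β2P4 and 3.29 under NCD38-β2PIPP. The day-30 values lay within the range of the day-4 values, so the days overlapped. CREBBP measured 2.51 FPKM under DMSO, 3.03 under NCD38, 2.50 under NCD38-β2P4 and 1.75 under NCD38-β2PIPP on day 30. The day-4 libraries gave 4.20 FPKM under DMSO, 2.01 under NCD38, 5.11 under NCD38-β2P4 and 7.09 under NCD38-β2PIPP. For both genes the NCD38 library was the highest of day 30 and the lowest of day 4, and the NCD38-β2PIPP library the lowest of day 30 and the highest of day 4.

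KAT2A measured 27.7 FPKM under DMSO, 27.6 under NCD38, 26.8 under NCD38-β2P4 and 25.9 under NCD38-β2PIPP on day 30. On day 4 it measured 62.7 FPKM under DMSO, 82.8 under NCD38, 60.9 under NCD38-β2P4 and 56.7 under NCD38-β2PIPP. All day-4 values were above all day-30 values, and the day-30 values lay close together. KAT2B measured 0.931 FPKM under DMSO, 1.89 under NCD38, 1.39 under NCD38-β2P4 and 0.863 under NCD38-β2PIPP on day 30. The day-4 libraries gave 0.447 FPKM under DMSO, 0.151 under NCD38, 0.644 under NCD38-β2P4 and 1.51 under NCD38-β2PIPP. The KAT2B days overlapped through the NCD38-β2PIPP library of day 4.

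KAT5 measured 8.10 FPKM under DMSO, 8.87 under NCD38, 8.18 under NCD38-β2P4 and 7.31 under NCD38-β2PIPP on day 30. On day 4 it measured 28.8 FPKM under DMSO, 33.1 under NCD38, 28.7 under NCD38-β2P4 and 28.5 under NCD38-β2PIPP. As for KAT2A, the days did not overlap, and the NCD38 library was the highest of day 4.

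BRD2 measured 36.7 FPKM under DMSO, 42.9 under NCD38, 35.5 under NCD38-β2P4 and 35.5 under NCD38-β2PIPP on day 30. The day-4 libraries gave 53.7 FPKM under DMSO, 39.8 under NCD38, 61.7 under NCD38-β2P4 and 68.6 under NCD38-β2PIPP. The NCD38 library of day 4 lay inside the day-30 range. BRD3 measured 7.45 FPKM under DMSO, 9.22 under NCD38, 7.18 under NCD38-β2P4 and 5.48 under NCD38-β2PIPP on day 30. On day 4 it measured 11.8 FPKM under DMSO, 6.92 under NCD38, 13.6 under NCD38-β2P4 and 14.9 under NCD38-β2PIPP. As with BRD2, the NCD38 library of day 4 was the only one inside the day-30 range. BRDT, the member of the family expressed in testis, was listed at 0 in all 8 libraries.

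KAT2A and KAT5 were the members called between the days on FPKM as deposited, in the fit with treatment as covariate. The mean level of KAT5 was 8.12 ± 0.639 FPKM on day 30 and 29.8 ± 2.23 FPKM on day 4 (SD, n = 4 libraries a day), a ratio of day 4 to day 30 of 3.67. That of KAT2A was 27.02 ± 0.82 and 65.8 ± 11.6 FPKM, a ratio of 2.43. In limma on log2(FPKM + 1), with treatment as covariate, the difference of day 30 minus day 4 was -1.76 (SE 0.12, adjusted P = 0.000436) for KAT5 and -1.24 (SE 0.12, adjusted P = 0.000909) for KAT2A. These are 2 of 6 members called lower, beside 31.7% of all 10865 genes called lower and 30.2% called higher, so the share of members is near that of all genes. Groups that did not overlap, with all day-30 libraries lower, were found for 2 of 6 members and for 33.1% of all genes.

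The other tested members were not called. The difference was -0.54 for BRD2 (95% interval -1.02 to -0.05, adjusted P = 0.0568), -0.59 for BRD3 (-1.31 to 0.13, adjusted P = 0.126), -0.63 for CREBBP (-1.45 to 0.20, adjusted P = 0.153) and -0.09 for EP300 (-0.91 to 0.72, adjusted P = 0.821). KAT2B, with 1.27 ± 0.477 FPKM on day 30 and 0.687 ± 0.582 on day 4, entered the fit only when all genes above 0 were kept, with a difference of 0.46 (-0.31 to 1.24, adjusted P = 0.276). These intervals do not show that the levels of the days were alike. Treatment day cannot be told apart from anything else that differed between the day-30 and the day-4 libraries.

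Transcript GC content moved with the day difference. Between the DMSO libraries, the log2 ratio of day 30 to day 4 correlated with GC content across 10177 genes (Spearman's rho = -0.657, across genes of 2 libraries, which are not independent replicates). With the trend on GC content subtracted from each library, KAT5 differed by -1.04 (adjusted P = 0.000601) and KAT2A by -0.45 (adjusted P = 0.0108), still called but smaller, while BRD2 (0.09), BRD3 (-0.12), CREBBP (0.00) and EP300 (0.21) were not called. With libraries rescaled to the same median, BRD2 (-0.66, adjusted P = 0.00994), BRD3 (-0.70, adjusted P = 0.0158) and CREBBP (-0.71, adjusted P = 0.0323) were called too. This made 5 of 6 members, beside 3657 of all 10865 genes called lower. The same 5 were called with the trend on transcript length subtracted, beside 3396 of 10177 genes called lower. BRD2, BRD3 and CREBBP were then at -0.60, -0.74 and -0.82. Leaving out NCD38 on day 4 or NCD38 on day 30 put BRD2 at -0.75, BRD3 at -0.91 and CREBBP at -0.97. With 6 members, nothing particular to them is read from these counts.

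**Figure D1:**
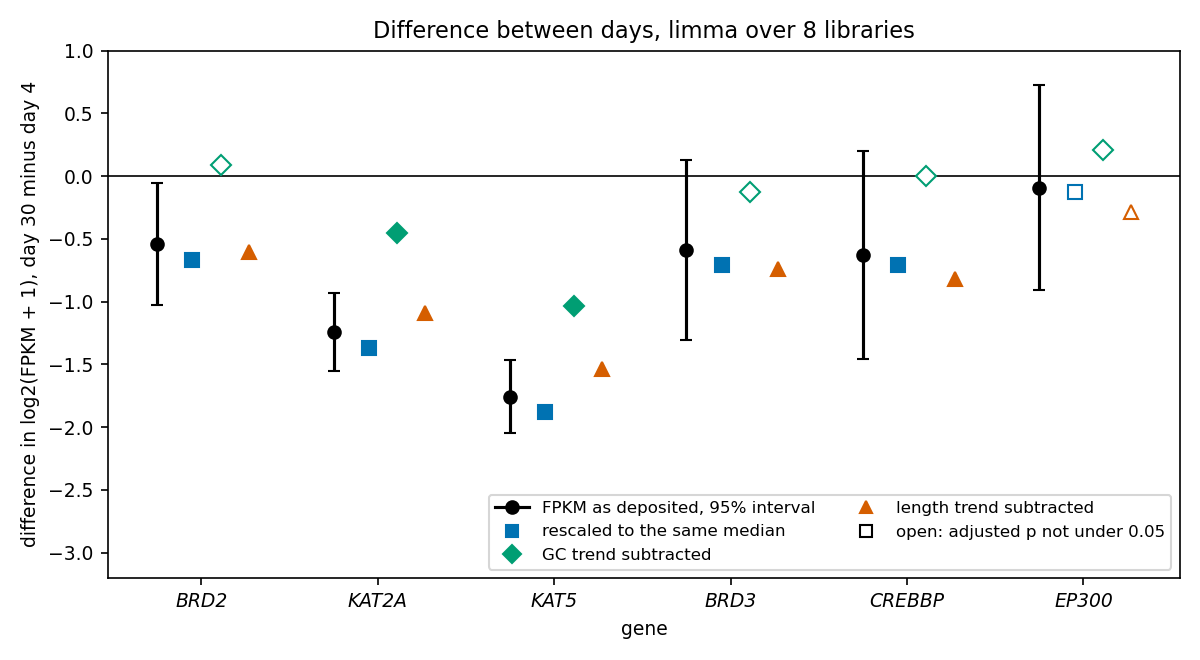
Difference in log2(FPKM + 1) of day 30 minus day 4 for the 6 tested genes, from limma over 8 libraries. Black points with bars are the FPKM as deposited with 95% intervals, coloured points are 3 alternatives, and open points have an adjusted p that is not under 0.05. KAT2A and KAT5 lie below 0 in all 4 settings, at -0.45 to -1.37 and at -1.04 to -1.88, while BRD2, BRD3 and CREBBP move to near 0 when the GC trend is subtracted.

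Next, the inhibitors were compared with DMSO. In limma with day as covariate, 0 of 6 members were called for NCD38, NCD38-β2P4 or NCD38-β2PIPP, beside 0.0368%, 0.0184% and 0.0184% of all genes, and 0 of 6 had an unadjusted p under 0.05. Over all genes, 145, 32 and 62 had such an unadjusted p. The member differences ranged from -0.30 to 0.19 for NCD38 (95% intervals reaching from -1.47 to 0.91), from -0.04 to 0.12 for NCD38-β2P4 (-1.06 to 1.29) and from -0.12 to 0.32 for NCD38-β2PIPP (-1.05 to 1.47). With 1 library per condition the days stand in for replicates, and a response that differed between the days enters the error of this fit.

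The compounds were compared at the labelled dose and on the same days, in 3 pairs and 18 tests of members. None was called by limma, beside 0.0092% of all genes for NCD38-β2P4 against NCD38, 0.0184% for NCD38-β2PIPP against NCD38 and 0.0276% for NCD38-β2PIPP against NCD38-β2P4, and the lowest unadjusted P was 0.130. For the conjugates, which differ by imidazole in place of pyrrole, NCD38-β2PIPP minus NCD38-β2P4 ranged from -0.10 for BRD3 to 0.20 for EP300 (95% intervals reaching from -1.14 to 1.35). Against the parent compound, NCD38-β2PIPP differed by -0.31 for KAT2A (-0.75 to 0.13, adjusted P = 0.530) up to 0.56 for EP300 (-0.60 to 1.71, adjusted P = 0.547). NCD38-β2P4 minus NCD38 ranged from -0.24 for KAT2A to 0.41 for CREBBP (95% intervals reaching from -0.79 to 1.58). The intervals for EP300, CREBBP and BRD3 include a doubling of FPKM + 1 in at least 1 direction, so a difference of that size lies within what these libraries allow for them.

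Each inhibitor library was also set against the DMSO library of its day, as a value with no test. None of the members reached a log2 ratio of 1 in either direction, beside 1.66%, 1% and 1.17% of the tested genes on day 30 and 5.41%, 1.91% and 11.2% on day 4, for NCD38, the P4 conjugate and the PIPP conjugate in this order. This count of 0 rests on the 1 FPKM added before the logarithm, which draws the ratios of low genes towards 0. With 0.1 added instead, EP300 (-1.31), CREBBP (-1.03) and KAT2B (-1.12) passed 1 with NCD38 on day 4, beside 14.3% of tested genes lower by as much, and EP300 (1.16) and KAT2B (1.55) with NCD38-β2PIPP, beside 21.2% higher by as much. On day 30, NCD38 gave values from -0.01 for KAT2A to 0.58 for KAT2B, with 6 of 7 genes above 0. The median of all expressed genes was 0.06, and their share on either side of 0 is not given here. KAT2B was the gene past 0.5, with an FPKM fold of 2.03 (estimated 95% counting interval 1.54 to 2.68, from an estimated 145 and 77.4 fragments). Past 0.5 were thus 0 of the 6 tested members, beside 6.27% of all tested genes that were higher by as much. NCD38-β2P4 gave -0.14 to 0.31 on day 30, with none past 0.5, beside 3.69% of tested genes. NCD38-β2PIPP gave values below 0 for all 7 genes on day 30, lowest for BRD3 at -0.38 and CREBBP at -0.35, for which the estimated counting intervals of the FPKM fold were 0.666 to 0.813 and 0.616 to 0.792. BRD2 and KAT2B were at -0.05 and KAT2A at -0.09, and the median of all expressed genes was -0.01. The estimated counting interval excluded a fold of 1 for 3 of the 7 genes. The share of all genes below 0 is not given here, so nothing particular to the members is read from their common sign. No member was past 0.5 in the lower direction, beside 1.44% of tested genes.

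On day 4, EP300, CREBBP, KAT2B, BRD2 and BRD3 were below DMSO with NCD38 and above it with both conjugates in the FPKM as deposited, and under the alternatives EP300 kept these signs while each of the other 4 genes changed at least 1 of them. With NCD38, CREBBP was at -0.79, BRD3 at -0.69 and EP300 at -0.68, which were 3 of the 6 tested members past 0.5 in the lower direction, beside 27.6% of all tested genes. EP300 was at 0.363 times its DMSO level (estimated counting interval 0.274 to 0.479, an estimated 63.0 against 229 fragments). BRD2 was at -0.42 and KAT2B at -0.33, while KAT2A was at 0.40 and KAT5 at 0.20. With NCD38-β2PIPP, EP300 was at 0.83, KAT2B at 0.79 and CREBBP at 0.64, which were 2 of the 6 tested members and KAT2B past 0.5 in the higher direction, beside 30.9% of tested genes. The FPKM fold of EP300 was 2.32 (estimated counting interval 1.98 to 2.72). BRD2 was at 0.35, BRD3 at 0.32, KAT5 at -0.01 and KAT2A at -0.14. NCD38-β2P4 lay between, at -0.04 for KAT2A to 0.38 for EP300, and with none past 0.5, beside 14.2% of tested genes.

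These day-4 values moved with length, GC content and scale. Across 10177 genes, rho of the day-4 log2 ratio with transcript length was -0.275 for NCD38, 0.359 for NCD38-β2P4 and 0.441 for NCD38-β2PIPP, and rho with GC content was 0.585, -0.529 and -0.689. EP300 and CREBBP are longer than 95.7% and 98.0% of the expressed genes. With the trend on length subtracted, NCD38 gave -0.07 for EP300, -0.19 for CREBBP, -0.16 for BRD3 and 0.12 for BRD2, and 0.81 for KAT2A, and NCD38-β2PIPP gave 0.15, -0.04, -0.19, -0.07 and -0.35 for the same genes. With the trend on GC content subtracted, CREBBP stayed at -0.74 with NCD38 and at 0.66 with NCD38-β2PIPP. KAT2B then changed sign, to 0.12 with NCD38 and to -0.05 with NCD38-β2PIPP. Rescaling to the same median changed the NCD38 value of BRD2 on day 4 from -0.42 to 0.03, with the median ratio of all expressed genes at -0.21, with EP300 at -0.52 and CREBBP at -0.48, and raised KAT2A from 0.40 to 0.85 and KAT5 from 0.20 to 0.64. For NCD38-β2PIPP, where that median was 0.17, it changed BRD2 from 0.35 to -0.03 and BRD3 from 0.32 to -0.04, with EP300 at 0.56, CREBBP at 0.31, KAT2A at -0.52 and KAT5 at -0.38.

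Other genes of histone acetylation were described from 8 lists, none of which had a gene called for an inhibitor or between compounds. Between the days the counts below stand beside 30.2% of all genes called higher and 31.7% called lower, or 28.1% and 27.7% with the GC trend subtracted, and nothing particular to a list is read from them. The counts and medians changed with that subtraction and are given both ways. Of 10 other acetyltransferase genes tested 1 was higher and 2 were lower on day 30 (median difference 0.05, beside -0.02 over all genes), and 2 and 4 with the GC trend subtracted (median -0.04), where 9 had a value. HAT1, which acetylates newly made H4, was the higher one, at 2.55 FPKM on day 4 and 20.6 on day 30. GTF3C4, a TFIIIC subunit, was at 15.8 FPKM on day 4 and 4.71 on day 30. KAT8, the writer of H4K16ac and the most abundant of the list, was at 17.4 FPKM on day 4 and 17.99 on day 30, and was called higher on day 30 with the GC trend subtracted (0.76, adjusted P = 0.00223).

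Of 22 partners of KAT2A and KAT2B in SAGA and ATAC, 8 were higher and 5 were lower on day 30 (median 0.26), and 7 and 6 with the GC trend subtracted (median 0.11). ENY2, of the deubiquitinase module of SAGA, was at 6.87 FPKM on day 4 and 54.2 on day 30, while USP22, the ubiquitin protease of the same module, was at 83.2 and 28.4 FPKM. TAF10, shared with TFIID and the most abundant partner, was not called, at 109 and 118 FPKM. Of 17 NuA4 partners of KAT5, 6 were higher and 4 were lower (median 0.42), and 6 and 2 with the GC trend subtracted (median 0.17). YEATS4, an acetyl-lysine reader, was at 3.51 FPKM on day 4 and 15.3 on day 30. RUVBL2, the ATPase that was the most abundant partner, was at 243 and 126 FPKM, a call that was lost with the GC trend subtracted (-0.13, adjusted P = 0.457). DMAP1, another subunit, was called in opposite directions, at -0.50 as deposited and 0.29 with the GC trend subtracted (adjusted P = 0.0209 and 0.0450), and is named after its values were seen.

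Of 16 partners of MYST acetyltransferases, 2 were higher and 5 lower on day 30 (median -0.21), and 3 and 5 with the GC trend subtracted (median -0.02). MSL3 was at 3.85 FPKM on day 4 and 8.86 on day 30, and HCFC1, a subunit of the KAT8 complex NSL, was at 23.2 and 5.37. Of 15 deacetylase genes, 6 were higher and 7 lower (median -0.22), and 6 and 2 with the GC trend subtracted (median 0.12). HDAC2 was at 1.87 FPKM on day 4 and 11.5 on day 30, whereas its paralog HDAC1 was at 97.8 and 68.4 FPKM and HDAC3 at 69.8 and 27.7. Of 17 elongation factor genes that act after BET proteins, 2 were higher and 9 lower (median -0.56), and 3 and 4 with the GC trend subtracted (median -0.03). LARP7, which stabilises the RNA that holds the elongation kinase inactive, was at 0.546 FPKM on day 4 and 20.1 on day 30. MEPCE, which caps that RNA, was at 125 and 73.4 FPKM and was not called with the GC trend subtracted (-0.06, adjusted P = 0.661). COBRA1, a subunit of the negative elongation factor, was at 135 and 42.4 FPKM. WHSC2, another subunit of that factor, was called at -0.44 as deposited and at 0.35 with the GC trend subtracted (adjusted P = 0.0179 and 0.0319), and was likewise singled out with its values known.

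Of 17 other bromodomain genes, 7 were higher and 3 lower on day 30 (median 0.89), and 4 and 4 with the GC trend subtracted (median -0.05). BAZ1A, a subunit of the ACF chromatin remodeller, was at 1.34 FPKM on day 4 and 14.5 on day 30, and TRIM28, the corepressor of KRAB zinc finger proteins, at 255 and 114. BRWD1 was called in opposite directions, at 1.09 as deposited and -0.49 with the GC trend subtracted (adjusted P = 0.0115 and 0.0134), and is named after its values were seen. Of 8 genes of acetyl-CoA supply, 2 were higher and 5 lower (median -0.69), and 2 and 4 with the GC trend subtracted (median -0.29). PDHA1, a subunit of pyruvate dehydrogenase, was at 22.9 FPKM on day 4 and 43.4 on day 30, SLC25A1, the mitochondrial citrate carrier, at 114 and 46.3, and CRAT, carnitine acetyltransferase, at 94.8 and 22.7. The highest and the lowest called gene of every list had the same direction after subtraction of either trend, and of these genes RUVBL2 lost the call with the GC trend subtracted.

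Within the group, KAT2A and KAT5 followed each other across the 8 libraries (Pearson's r = 0.99 of log2(FPKM + 1), given as a description since all points share the day and library effects above). BRD2, BRD3 and CREBBP formed another set, with r = 0.96 for BRD2 with BRD3, 0.96 for BRD2 with CREBBP and 0.98 for BRD3 with CREBBP. EP300 was at r = 0.83 with CREBBP and at -0.09 with KAT2A. KAT2B was at -0.68 with its paralog KAT2A and at 0.66 with EP300. Among the tested genes, the pattern most like that of KAT5 was IBA57 (r = 0.999) and that of KAT2A was RUSC1 (r = 0.999), but 1921 and 1760 genes had r of at least 0.95 with them. The closest patterns were SPTAN1 for BRD2 (r = 0.995), NACC2 for CREBBP (r = 0.995), KIAA1245 for EP300 (r = 0.995), CRCP for BRD3 (r = 0.990) and SLAIN2 for KAT2B (r = 0.981), and 45 to 263 genes reached 0.95 with these 5 members.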

How the data were processed

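The authors prepared stranded mRNA libraries and, per the paper's methods, used TopHat for alignment and Cufflinks for assembly and expression levels. Per the labels, the processing notes name HISAT2, another aligner, beside Cufflinks and hg19, so which aligner made the table is not settled. The version of Cufflinks and the annotation are not given in the sources used here, nor is whether reads were assigned by strand. The authors deposited FPKM per gene, already divided by length and mapped reads, with no counts, so depth is known only as an estimate. The ChIP-seq samples of the series were not analysed here.

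From these, log2(FPKM + 1) was computed, and 10865 genes with a mean FPKM of at least 1 were tested. The 90 entries with a repeated name were left out. limma 3.58.1 (R 4.3.3; lmFit, eBayes with trend) was fitted over all 8 libraries with treatment and day as terms, which leaves 3 residual degrees of freedom, and P was adjusted by Benjamini-Hochberg over all tested genes (called below 0.05). P-values measure the spread between these libraries, which may be technical. Single-library log2 ratios used a threshold of 1 or 0.5. Fragments per library were estimated from the FPKM of single fragments in transcripts of 1000 to 4000 nt, and 95% intervals from them cover counting error only. GC content and length came from 1 GENCODE release 44 transcript per gene, and trends were subtracted as medians of 20 bins. On simulated data with 200 of 10865 genes changed 4-fold, 77.5% were recovered for the day contrast with 9 unchanged genes called, and 68.0% for NCD38 with 7. The simulated noise was drawn for each gene separately, without the trends on GC content and length that the libraries share. These rates therefore need not hold for the real libraries.

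The members and gene lists were chosen with earlier results of these data known. Genes named from a list were the most abundant one and the highest and lowest called one between days, and BRDT whatever its values. A gene also named by this rule is not reported here. For each member, the gene of highest Pearson correlation was named. A total of 54 alternatives were set at the start and 8, the subtraction of the length trend, were added after seeing the data. Promoters and their motifs came from RefSeq on GRCh38.p14, and Python 3.11.15 was used.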

Additional observations from a re-analysis of the deposited data

Results flagged for a closer look

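In 14 sets of 4 libraries (7 genes on 2 days), 1 library stood far from the others by Dixon's criterion in 2 sets. The nominal rate of about 1 in 20 for this criterion holds for replicates, whereas each set here holds 4 treatments. The share of all genes marked in this way is not given here, so nothing particular to the members is read from the count. KAT5 with NCD38 on day 4 was at 33.1 FPKM, above 28.5 to 28.8 FPKM in the other libraries of that day. BRD2 with NCD38 on day 30 was at 42.9 FPKM, above 35.5 to 36.7 FPKM.

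The log2 ratio against DMSO had opposite signs on the 2 days in several cases. With 1 library per condition this difference between days was not tested. With NCD38 it was 0.19 on day 30 and -0.68 on day 4 for EP300, 0.20 and -0.79 for CREBBP, 0.58 and -0.33 for KAT2B, 0.22 and -0.42 for BRD2, and 0.28 and -0.69 for BRD3. With NCD38-β2PIPP it was -0.19 on day 30 and 0.83 on day 4 for EP300, -0.35 and 0.64 for CREBBP, and -0.38 and 0.32 for BRD3. With the length trend subtracted, EP300 was at 0.10 and -0.07 with NCD38, and CREBBP at -0.29 and -0.04 with NCD38-β2PIPP.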

How the results depend on the processing

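Of 1097 values computed under the alternatives, 935 kept both direction and side of the threshold, or stayed within their spread. Of these 935, 584 were not past the threshold in either setting, 75 of them with another sign. Among the 42 single-library ratios of members, 31 moved by more than the half-width of the counting interval with the other day's DMSO library. That number was 17 after rescaling, 17 with the length trend subtracted, 4 with the GC trend subtracted and 4 with a pseudocount of 0.1. KAT2A and KAT5 were called lower on day 30 in every alternative run, and no member was called for an inhibitor or between compounds in any. The number of members called between days was 5 after rescaling to the same median and after subtraction of the length trend, and 2 to 5 when 1 library was left out. Over all genes, 3657 and 3396 were called lower in the first 2 of these settings, and 2382 to 3975 when 1 library was left out. Genes called higher on day 30 numbered 1632 when every library had to reach an FPKM of 1, and 2184 (without DMSO on day 30) to 3580 when 1 library was left out.

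Counts of all genes called for the inhibitors were small and unstable. For NCD38 (4 genes) the count was 2 with all genes above 0 and 0 to 21 when 1 library was left out. For NCD38-β2P4 (2 genes) it was 4 with a pseudocount of 0.1, 1 with all genes above 0, 1 with the GC trend subtracted, and 0 to 20. For NCD38-β2PIPP (2 genes) it was 1 with a pseudocount of 0.1, 1 with the GC trend subtracted, and 0 to 27. For NCD38-β2P4 against NCD38 (1 gene) it was 2 with a pseudocount of 0.1, 0 with all genes above 0, and 0 to 13. For NCD38-β2PIPP against NCD38 (2 genes) it was 0 with all genes above 0, 1 with the GC trend subtracted, and 0 to 27. For NCD38-β2PIPP against NCD38-β2P4 (3 genes) it was 0 with all genes above 0, and 0 to 27. When every library had to reach an FPKM of 1, each of these 6 counts was 0.

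Members past a log2 ratio of 0.5 were also counted against the other day's DMSO library, which differs in day as well. Of all 7 members, the untested KAT2B included, 3 then passed with NCD38 on day 30. With the P4 conjugate 6 passed on day 30 and 5 on day 4, and with the PIPP conjugate 5 and 6. The share of all genes past 0.5 under these alternatives is not given here, so nothing particular to the members is read from the counts. Against the same-day DMSO library, the count for NCD38 on day 30 was 0 with either trend subtracted. On day 4 it was 1 with either, but for different genes in opposite directions. These were CREBBP at -0.74 with the GC trend subtracted and KAT2A at 0.81 with the length trend subtracted. For NCD38-β2P4 it was 1 on each day with a pseudocount of 0.1, and for NCD38-β2PIPP on day 4 it was 0 with the length trend subtracted. With NCD38-β2PIPP on day 4, CREBBP turned to -0.043 with the length trend subtracted and KAT2B to -0.053 with the GC trend subtracted. The cause of these changes was not tested. Depth limits KAT2B most, with an estimated 9.09 fragments at the lowest. The labels number no replicates and a condition is a single library, so libraries could be matched across days only by treatment. With treatment and day as terms, the fit set each day-30 library against the day-4 library of the same treatment.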
